A study of Mus musculus with 4 samples.

Results

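The enzymes of lower glycolysis, taken here as Gpi1, Aldoa, Tpi1, Gapdh, Pgk1, Pgam1, Eno1, Pkm, Ldha and Ldhb, were followed in B16-F10 cells, a mouse melanoma line, on 4 Agilent 2-colour arrays. Members were the non-control probes that the array files name after one of these 10 genes, or whose RefSeq transcript now carries that symbol, with Pkm listed under its former name Pkm2. This gave 14 of the 41174 non-control probes, for 9 of the 10 genes, on an array with probes for 19505 genes named through RefSeq. No probe met the rule for Gapdh, and probes that the files describe as GAPDH under other names are reported separately. On every array, Cy5 labelled RNA from cells given a goat polyclonal agonist antibody against mouse TIM3 and Cy3 labelled RNA from cells given unspecific goat IgG, both at 15 ug/ml for 2 h in culture. Replicates 1, 2, 3 and 4 were passages 14, 16, 18 and 19 of this 1 line, and antibody and IgG cells of a passage shared an array. The series design names the antibody as an agonist for all Cy5 samples. For replicate 3 the labels name the antibody but do not repeat its dose and time. The dyes were never exchanged, so an effect of the antibody and an effect of the dye on a probe cannot be told apart, and a p-value measures the spread between passages of 1 line.

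Glycolysis below hexokinase begins with an isomerase and, after a phosphorylation that belongs to the upper part, aldolase splits the sugar into a pair of trioses. The triose steps that follow yield ATP at phosphoglycerate kinase and pyruvate kinase, and lactate dehydrogenase turns pyruvate into lactate while restoring NAD+. Many tumour cells make lactate even where oxygen is present, and several of these genes are known targets of the hypoxia-inducible factor HIF-1 and of MYC. The melanocyte identity of the line was visible on the arrays: 7 of 7 melanocyte markers cleared background on every array in Cy5 and in Cy3, against 3 of 6 leukocyte, 2 of 5 fibroblast and 0 of 4 endothelial markers. Between 25666 and 28401 probes per array were well above background in the anti-TIM3 channel, and between 21152 and 22052 in the IgG channel. Saturated spots numbered 4, all on replicate 1, and none was on a member probe.

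After 2 h with the anti-TIM3 antibody, most lower glycolysis probes gave a higher signal than with IgG, from aldolase and phosphoglycerate kinase to lactate dehydrogenase A, while the enolase probe gave a lower one. All 14 member probes were bright enough to be tested, that is, flagged by the scanner software as well above background with antibody or with IgG on 3 or more of the 4 arrays. Of the 14, 10 were higher, 2 were lower and 2 did not pass an adjusted p of 0.05 in limma, fitted over all 26552 tested probes. Across all tested probes 14.2% were called higher and 13.6% lower (27.8% in either direction). By gene, 7 had a probe called higher and none lower (Gpi1, Aldoa, Tpi1, Pgk1, Pgam1, Ldha and Ldhb) and 2 had a probe called lower and none higher (Eno1 and Pkm). The median log2 ratio of anti-TIM3 over IgG was 0.27 over the 14 probes and 0.01 over all tested probes. A lower signal in bulk RNA cannot tell fewer expressing cells from less transcript per cell, and the same holds for a higher one.

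**Figure D1:**
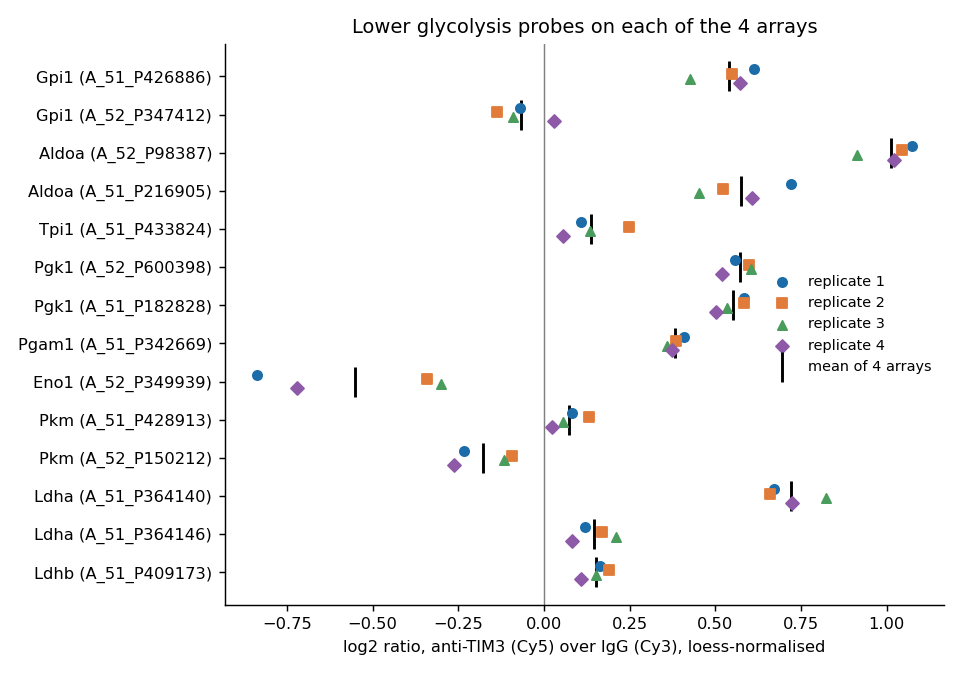
Log2 ratio of anti-TIM3 (Cy5) over IgG (Cy3) after loess normalisation on the horizontal axis, with 1 row per member probe in pathway order. Each symbol is 1 array and the bar is the mean of the 4 arrays. The Aldoa probe A_52_P98387 lies farthest right on every array and Eno1 farthest left.

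These counts stand beside a trend with probe brightness, since bright probes in general had ratios above 0. Among the 182 tested probes over 16 in mean log2 intensity, 89.6% were called higher and 0.549% lower, and their median log2 ratio was 0.34. Of the 14 member probes, 8 lay in that range, and 8 of 8 were called higher. Of the 6 member probes up to 16, 2 were higher and 2 lower. The deposited ratios, which the scanner software made from detrended and dye-normalised signals, had a median of 0.08 over 16, where they called 29.1% of probes higher. With them 7 member probes were higher and 2 lower, against 10.8% and 8.98% of all tested probes. With a trend on brightness and probe bases removed from the loess ratios the counts were again 7 and 2, against 12.6% and 12.8% (47.3% higher over 16). The same 7 higher probes and the same 2 lower probes were called in all 3 cases. The 7 were the bright Gpi1 probe, both Aldoa probes, both Pgk1 probes, the Pgam1 probe and 1 Ldha probe, and the 2 were the Eno1 probe and 1 Pkm probe. Median centring of each array in place of loess moved the median of all tested probes to 0.15 and that of the members to 0.97 and called 0 probes of the array in limma (without adjustment, 968 probes were higher and 38 lower at a p under 0.05). Fitting the channels without pairing them within an array left 7 member probes higher and 1 lower, against 330 higher and 252 lower of all 26552 tested probes.

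**Figure D2:**
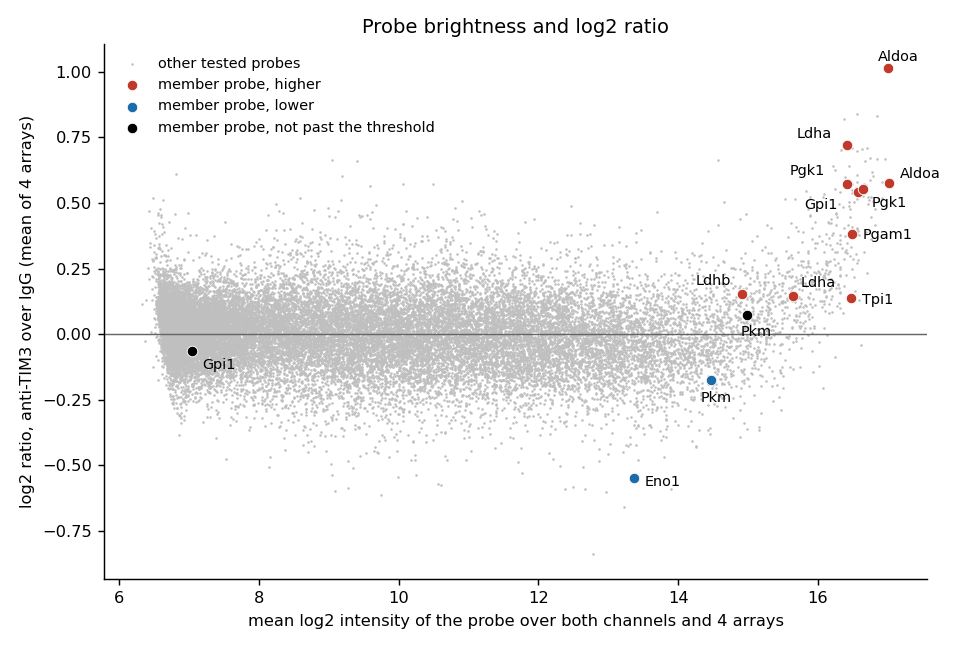
Mean log2 ratio of anti-TIM3 over IgG over 4 arrays (vertical axis) against mean log2 intensity over both channels (horizontal axis) for the 26552 tested probes, with member probes in colour by their call. The grey cloud bends upwards over 16, where 8 member probes lie. Eno1, at 13.4, lies near its lower edge.

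Gpi1 encodes glucose-6-phosphate isomerase, which interconverts glucose 6-phosphate and fructose 6-phosphate. Its probe A_51_P426886 (chromosome 7, 31089664 to 31089723, minus strand, mm7) had log2 ratios of 0.61, 0.55, 0.43 and 0.57 in replicates 1 to 4. All 4 were above 0, with replicate 3 the lowest. The mean was 0.54 ± 0.08 (SD, n = 4; limma, adjusted p = 0.000179), or 1.45-fold, and the deposited ratio was 0.27 (adjusted p = 0.0193). Tested probes within 0.25 of A_51_P426886 in mean log2 intensity had a median log2 ratio of 0.45 (0.17 in the deposited ratios). There were 81 such probes, and here as below the set includes the probe it is set beside. A_51_P426886 is printed in 10 spots on each array. The SD among those spots was 0.03 to 0.05 within an array, beside 0.08 between the array means. The other Gpi1 probe, A_52_P347412 (31097331 to 31097390), lay at 7.04 in mean log2 intensity. It was well above background in Cy5 on 4 arrays and in Cy3 on 3. Its log2 ratios were -0.07, -0.14, -0.09 and 0.03, which straddled 0, with a mean of -0.07 ± 0.07 (adjusted p = 0.22; 95% confidence interval from -0.15 to 0.02). This dim probe and the bright one therefore did not give the same result for Gpi1.

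Aldoa encodes aldolase A, which splits fructose 1,6-bisphosphate into the trioses. Both of its probes had a mean log2 intensity of 17.0. The sequences are given as designed on the array, 5′ to 3′, because the pair overlaps in sequence yet differed in ratio. Capitals mark the 27 bases they share without a break. After that stretch the first probe has 3 further bases before another 15 that both carry.
A_52_P98387: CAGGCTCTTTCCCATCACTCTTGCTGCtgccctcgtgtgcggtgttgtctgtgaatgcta
A_51_P216905: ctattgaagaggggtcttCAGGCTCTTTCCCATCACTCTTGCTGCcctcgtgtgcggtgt
The files place A_52_P98387 on chromosome 7 from 122891843 to 122891902 (minus strand, mm7) and give for A_51_P216905 only 15 bases, from 122891645 to 122891659. In no file is a probe assigned to an exon or untranslated region.

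At A_52_P98387 the deposited processed signals were 157972, 145650, 145729 and 154172 in anti-TIM3 cells of replicates 1 to 4, against 104299, 90379, 100541 and 99625 in IgG cells. The lowest anti-TIM3 value exceeded the highest IgG value. The log2 ratios after loess were 1.07, 1.04, 0.91 and 1.02, with a mean of 1.01 ± 0.07 (adjusted p = 1.69e-05), the highest of all 26552 tested probes. A_51_P216905 had 0.72, 0.52, 0.45 and 0.61, again lowest in replicate 3, with a mean of 0.58 ± 0.12 (adjusted p = 0.00026). The deposited ratios were 0.61 for A_52_P98387 and 0.23 for A_51_P216905. Tested probes within 0.25 of them in mean log2 intensity had median log2 ratios of 0.58 and 0.59 (0.23 and 0.25 in the deposited ratios). These sets held only 14 and 12 probes, with both Aldoa probes among them. The difference between both Aldoa probes was 0.44 ± 0.07 over the arrays (0.38 in the deposited ratios) and had the same sign on 4 of 4. An exact two-sided permutation test over 4 arrays gave p = 0.125, the smallest this design allows (0.15 after adjustment over 6 probe pairs).

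**Figure D3:**
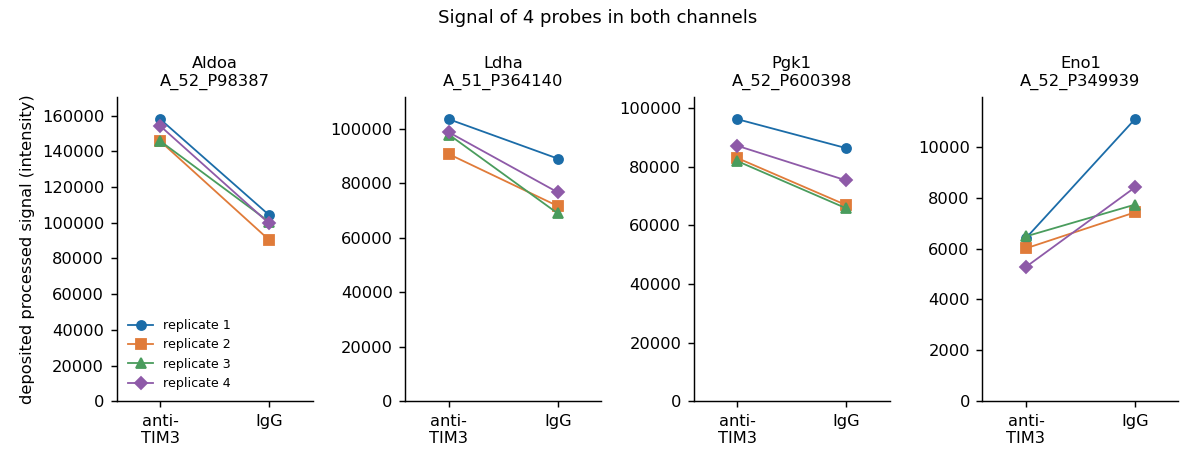
Deposited processed signal, in intensity units (vertical axes, each starting at 0, with its own scale) of 4 member probes in the anti-TIM3 and the IgG channel, with a line for each array. The lines fall towards IgG on all 4 arrays for Aldoa, Ldha and Pgk1, and climb towards IgG on all 4 arrays for Eno1.

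Tpi1 encodes triosephosphate isomerase, which interconverts the trioses made by aldolase. Its probe A_51_P433824 (chromosome 6, 124837320 to 124837379, minus strand, mm7) had log2 ratios of 0.11, 0.25, 0.13 and 0.06, all above 0. The mean was 0.14 ± 0.08 (adjusted p = 0.0336). In the deposited ratios it was -0.24, 0.04, -0.06 and -0.17, below 0 on 3 of 4 arrays, with a mean of -0.11 (adjusted p = 0.219). With the brightness and base trend removed the mean was -0.05. The higher call of Tpi1 held in neither of those alternatives. Of the 4 fits that left out a replicate it held in 1, without replicate 4 (adjusted p = 0.0452). Tested probes within 0.25 of A_51_P433824 in mean log2 intensity had a median log2 ratio of 0.38 (0.11 in the deposited ratios).

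Pgk1 encodes phosphoglycerate kinase 1, the first ATP-yielding enzyme of the pathway. Its probes share 38 bases, marked in capitals, and are shown because each nearly repeats the other.
A_52_P600398: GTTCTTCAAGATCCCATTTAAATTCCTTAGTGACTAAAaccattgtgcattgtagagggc
A_51_P182828: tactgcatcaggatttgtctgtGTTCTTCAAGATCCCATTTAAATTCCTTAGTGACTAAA
They lie on the X chromosome from 101530809 to 101530868 and from 101530787 to 101530846 (plus strand, mm7). A_52_P600398 had log2 ratios of 0.56, 0.60, 0.61 and 0.52, a mean of 0.57 ± 0.04 (adjusted p = 8.14e-05). A_51_P182828 had 0.58, 0.59, 0.53 and 0.50, a mean of 0.55 ± 0.04 (adjusted p = 0.000102). Tested probes within 0.25 of each in mean log2 intensity had median log2 ratios of 0.35 for A_52_P600398 and 0.49 for A_51_P182828. In the deposited ratios these medians were 0.09 and 0.18. Replicate 4 was the lowest of the 4 arrays at both Pgk1 probes. The difference between the probes was 0.02 ± 0.04, above 0 on 3 of 4 arrays (exact two-sided permutation test, p = 0.5; adjusted p = 0.5 over 6 pairs), and 0.003 in the deposited ratios. A_51_P182828 is printed in 10 spots, of which 8 per array were kept after outlier flags. The kept spots ran from 0.44 to 0.69 over all arrays, with an SD of 0.02 to 0.07 within an array. The deposited ratios were 0.24 for A_51_P182828 (adjusted p = 0.0223) and 0.25 for A_52_P600398 (adjusted p = 0.0265).

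Pgam1 encodes phosphoglycerate mutase 1, which moves the phosphate before the enolase step. Its probe A_51_P342669 (chromosome 19, 41812247 to 41812306, plus strand, mm7) had log2 ratios of 0.41, 0.39, 0.36 and 0.38, the narrowest spread among the member probes. The mean was 0.38 ± 0.02 (adjusted p = 0.000336), close to the median of 0.34 for all probes over 16. Tested probes within 0.25 of A_51_P342669 in mean log2 intensity had a median log2 ratio of 0.38 (0.12 in the deposited ratios). In the deposited ratios Pgam1 was 0.14 (adjusted p = 0.0496), just past the threshold.

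Eno1 encodes alpha-enolase, which makes phosphoenolpyruvate. It had 1 probe under the rule, shown because it had the lowest ratio of the member probes.
A_52_P349939: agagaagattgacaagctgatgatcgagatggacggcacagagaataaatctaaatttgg
The files place it on chromosome 4 from 149233567 to 149233792 (plus strand, mm7), a span of 226 bases for a probe of 60. The deposited processed signals were 6411, 6008, 6477 and 5281 in anti-TIM3 cells, against 11075, 7419, 7722 and 8398 in IgG cells. Every anti-TIM3 value was below every IgG value, and the IgG value of replicate 1 stood above the other 3. The log2 ratios after loess were -0.84, -0.34, -0.30 and -0.72, with replicates 1 and 4 further from 0 than 2 and 3. The mean was -0.55 ± 0.27 (adjusted p = 0.00274), 1.46-fold lower with anti-TIM3, and only 12 of the 26552 tested probes had a lower mean. The spread over arrays was the widest of the member probes. The deposited ratio was -0.50 (adjusted p = 0.0371) and the trend-removed ratio -0.50, and the call held with each replicate left out (log2 ratios from -0.63 to -0.45). Among tested probes from 13 to 15 in mean log2 intensity 23% were called lower and 12.9% higher.

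Pkm encodes the muscle-type pyruvate kinase, whose transcript is spliced into the M1 and M2 forms and of which M2 is typical of tumour cells. Its probes share no stretch over 5 bases, and the files do not say which form either reads. They are shown because they lay on opposite sides of 0.
A_51_P428913: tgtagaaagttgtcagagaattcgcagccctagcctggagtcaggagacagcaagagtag
A_52_P150212: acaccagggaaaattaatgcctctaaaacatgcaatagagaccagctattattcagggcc
They lie on chromosome 9 from 59706027 to 59706086 and from 59705879 to 59705938 (plus strand, mm7). A_51_P428913 had log2 ratios of 0.08, 0.13, 0.06 and 0.02, a mean of 0.07 ± 0.05 (adjusted p = 0.142; 95% confidence interval from -0.01 to 0.15). A_52_P150212 had -0.23, -0.09, -0.12 and -0.26, a mean of -0.18 ± 0.08 (adjusted p = 0.0136). As at Eno1, replicates 1 and 4 were the lowest. The probes differed by 0.25 ± 0.06, with the same sign on 4 of 4 arrays (exact two-sided permutation test, p = 0.125; adjusted p = 0.15 over 6 pairs). In the deposited ratios the first was -0.07 (adjusted p = 0.209) and the second -0.23 (adjusted p = 0.0362). Both lay between 13 and 15 in mean log2 intensity, where 23% of tested probes were called lower and 12.9% higher. Tested probes within 0.25 of each had median log2 ratios of 0.03 for the first and -0.02 for the second (-0.04 for each in the deposited ratios). Leaving out replicate 1 ended the call of the second probe (adjusted p = 0.0506), as did leaving out replicate 4 (adjusted p = 0.0598). With the channels fitted without pairing its adjusted p was 0.129.

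Ldha encodes the A subunit of lactate dehydrogenase, which favours the step to lactate, and Ldhb the B subunit, which prevails in oxidative tissues. The Ldha probes have no stretch over 6 bases in common and are shown with that of Ldhb because their ratios differed.
Ldha A_51_P364140: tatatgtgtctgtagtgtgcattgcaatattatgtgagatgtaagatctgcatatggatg
Ldha A_51_P364146: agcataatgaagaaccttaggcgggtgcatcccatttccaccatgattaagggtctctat
Ldhb A_51_P409173: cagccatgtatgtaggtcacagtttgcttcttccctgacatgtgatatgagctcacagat
A_51_P364140 (chromosome 7, 43031720 to 43031779, plus strand, mm7) contains 5 C and 23 T, whereas A_51_P364146 (43030257 to 43031186, a span of 930 bases) contains 14 C and 16 T. The Ldhb probe lies on chromosome 6 from 142578009 to 142578068 (minus strand).

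At A_51_P364140 the deposited processed signals were 103439, 90643, 97814 and 98652 in anti-TIM3 cells, against 89005, 71606, 68907 and 76643 in IgG cells. The lowest anti-TIM3 value was above the highest IgG value. Its log2 ratios after loess were 0.67, 0.66, 0.82 and 0.72, highest in replicate 3, with a mean of 0.72 ± 0.07 (1.65-fold, adjusted p = 6.7e-05), the fifth highest of all tested probes. The other Ldha probe had 0.12, 0.17, 0.21 and 0.08, a mean of 0.15 ± 0.06 (adjusted p = 0.0186). It too was higher on all 4 arrays, but its deposited ratio was -0.07 (adjusted p = 0.351) and its trend-removed ratio 0.00 (adjusted p = 0.998). Its call ended without replicate 2 (adjusted p = 0.07) and without replicate 3 (adjusted p = 0.0822). The probes differed by 0.57 ± 0.07 (0.42 in the deposited ratios) on 4 of 4 arrays (exact two-sided permutation test, p = 0.125; adjusted p = 0.15 over 6 pairs). The size of the Ldha difference thus depended on the probe.

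Ldhb had log2 ratios of 0.16, 0.19, 0.15 and 0.11, a mean of 0.15 ± 0.03 (adjusted p = 0.0117). All 4 arrays were above 0, as they were in the deposited ratios, whose mean of 0.10 did not pass (adjusted p = 0.127). Without replicate 2 the loess ratio did not pass either (adjusted p = 0.0534). The Ldha probe A_51_P364140 exceeded Ldhb by 0.57 ± 0.09 on the log2 ratio scale, on 4 of 4 arrays (exact two-sided permutation test, p = 0.125; adjusted p = 0.15 over 6 pairs), and by 0.26 in the deposited ratios. The A_51_P364146 probe of Ldha had 0.15, as Ldhb did. In mean log2 intensity A_51_P364140 lay at 16.42, A_51_P364146 at 15.64 and the Ldhb probe at 14.91. Tested probes within 0.25 of them had median log2 ratios of 0.35, 0.14 and 0.03, in this order (0.09, -0.03 and -0.04 in the deposited ratios). The part of brightness in the differences between these probes was not tested.

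**Figure D4:**
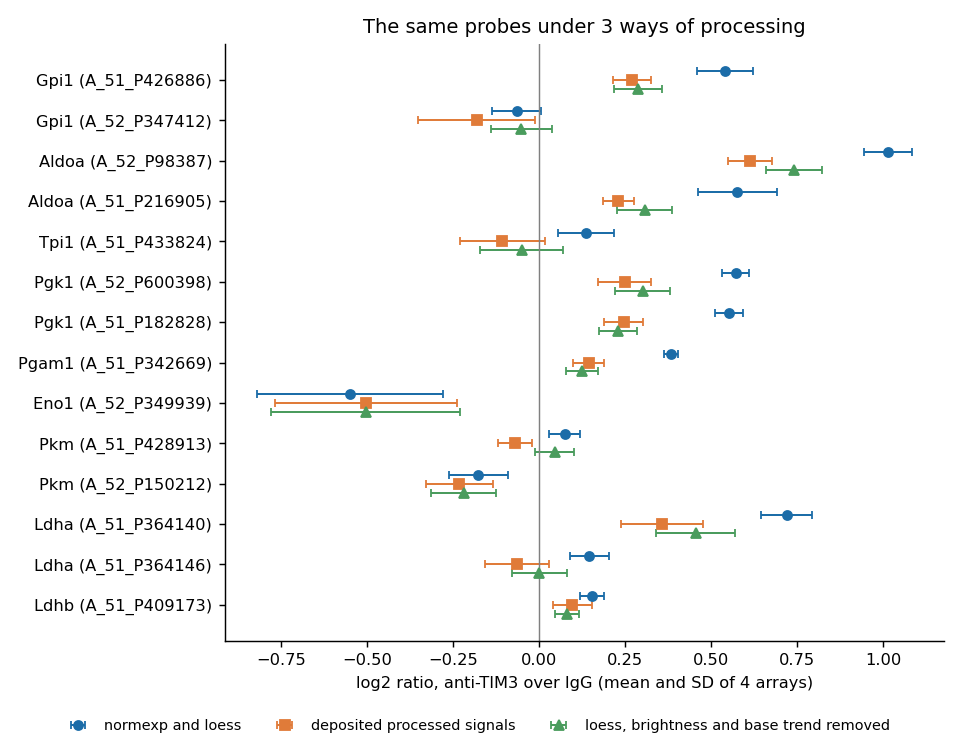
Log2 ratio of anti-TIM3 over IgG (horizontal axis, mean and SD of 4 arrays) of each member probe after normexp and loess, in the deposited processed signals, and after removal of a trend on brightness and probe bases. Both Aldoa probes, both Pgk1 probes, Pgam1, the upper Gpi1 row and the upper Ldha row stay right of 0 throughout, Eno1 and the lower Pkm row stay left of it, and Tpi1 changes side.

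Gapdh encodes glyceraldehyde-3-phosphate dehydrogenase, the step between the triose isomerase and phosphoglycerate kinase. None of its probes met the rule, but 14 probes carry a description as GAPDH or a GAPDH copy under other names, and they were chosen by that wording after the files had been seen. Processed copies of Gapdh are numerous in the mouse genome and near-identical to it, so which locus such a probe reads is uncertain. Of the 14, 13 were tested, 7 were higher and 4 lower. The 8 over 15 in mean log2 intensity had log2 ratios from 0.05 to 0.43 and 7 of them were higher, whereas in the deposited ratios 0 of the 8 were called. Of all tested probes 41.9% between 15 and 16 and 89.6% over 16 were higher. Of the 5 tested probes up to 15, 4 were lower, and these 4 were lower in the deposited ratios too. Among all tested probes 13.6% were lower (23% of those from 13 to 15), and 8.98% were lower in the deposited ratios.

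Only 2 of the 14 list the RefSeq Gapdh transcript among their accessions. LOC380687 had 0.62, 0.33, 0.31 and 0.45, a mean of 0.43 ± 0.14 (adjusted p = 0.00121), and a deposited ratio of 0.15 (adjusted p = 0.074). MGC68323, at probe A_52_P1687, had 0.26, 0.28, 0.36 and 0.10, a mean of 0.25 ± 0.11 (adjusted p = 0.00552), and a deposited ratio of -0.05 (adjusted p = 0.546). The number in the name LOC380687 is the RefSeq gene number of Gm5138, not of Gapdh. Another probe, LOC14433, bears the RefSeq gene number of Gapdh in its name but was dim, at 7.93, with a mean of -0.09 ± 0.14 (adjusted p = 0.232).
LOC380687 A_52_P479958: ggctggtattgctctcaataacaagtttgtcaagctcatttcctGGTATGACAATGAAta
LOC14433 A_52_P589321: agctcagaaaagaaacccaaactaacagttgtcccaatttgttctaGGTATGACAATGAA
Capitals mark the 14 bases that these probes share. The files place the first on chromosome 6 from 125188003 to 125188172 (minus strand, mm7), a span of 170 bases, and the second inside it, from 125188005 to 125188064.

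**Figure D5:**
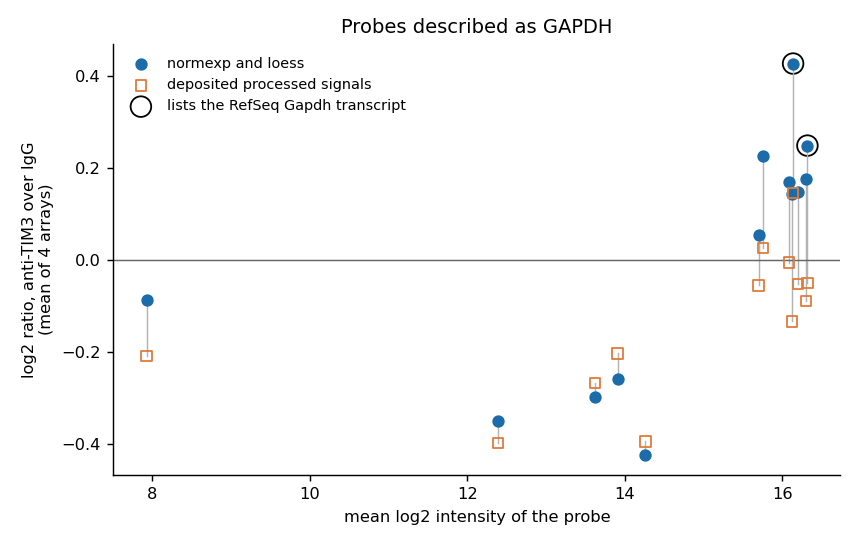
Mean log2 ratio of anti-TIM3 over IgG over 4 arrays (vertical axis) against mean log2 intensity (horizontal axis) of the 13 tested probes described as GAPDH, with both ways of processing joined by a line and the 2 probes that list the Gapdh transcript ringed. The 8 probes over 15 drop towards or below 0 in the deposited signals, and the 5 up to 15 lie below 0 in both.

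Other enzymes were also named in the descriptions of probes outside the rule. The 4 tested probes described as a pseudogene of lactate dehydrogenase A or as similar to it had log2 ratios from -0.19 to -0.04. Of these, 2 were called lower and 0 in the deposited ratios, against 13.6% and 8.98% of all tested probes. Of the 4, M17518 gave no value on replicate 1, so its fit rests on 3 arrays. LOC672731, described as similar to triosephosphate isomerase 1 and placed on chromosome 10, had -0.34, -0.33, -0.35 and -0.33, a mean of -0.34 ± 0.01 (adjusted p = 0.000485), and was lower in the deposited ratios too (-0.36). The 5 other tested probes described as aldolase A, triosephosphate isomerase, enolase 1 or pyruvate kinase did not pass (log2 ratios from -0.13 to 0.13). Among these, AK053780 lies on chromosome 6 from 124840090 to 124840149 and AK083076 on chromosome 9 from 59699520 to 59699579 (mm7), close to the Tpi1 and Pkm member probes.

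The rest of the pathway was taken from fixed lists, with 1 probe a gene, the brightest tested one. Of 13 genes for upper glycolysis and transport, 5 were higher and 4 lower, against 14.2% and 13.6% of all tested probes. Their median log2 ratio was 0.03. Slc2a1, the glucose transporter GLUT1, had 0.35, 0.44, 0.39 and 0.36 (0.39 ± 0.04, adjusted p = 0.000385), and Hk2, hexokinase 2, had 0.30, 0.32, 0.18 and 0.29 (0.27 ± 0.06). Slc16a3, the lactate exporter MCT4, had a mean of 0.19 ± 0.06. In the deposited ratios these 3 were also higher (0.40, 0.34 and 0.17). Bsg, the chaperone of the lactate transporters, had -0.45, -0.47, -0.49 and -0.49 (-0.48 ± 0.02), Slc16a1, the transporter MCT1, -0.25 ± 0.02, and Pfkl, liver-type phosphofructokinase, -0.17 ± 0.03. Slc2a1, Hk2, Slc16a3 and Slc16a1 lay between 13.4 and 14.2 in mean log2 intensity, in the range of 13 to 15 where 12.9% of tested probes were higher and 23% lower. The lactate transport genes were thus called in both directions. In the deposited ratios the list had 3 higher and 3 lower, against 10.8% and 8.98% of all tested probes.

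Of the isozymes typical of other tissues, 7 of 10 were tested, 1 was higher and 2 lower, against 14.2% and 13.6% of all tested probes. In the deposited ratios 0 were higher and 1 lower, and neither Bpgm (adjusted p = 0.0671) nor Eno3 (adjusted p = 0.0681) passed. Bpgm, bisphosphoglycerate mutase, had a log2 ratio of 0.14 ± 0.05 at its brightest probe, while its other tested probe was lower. Pgam2, the muscle mutase, had -0.23 ± 0.09 and Eno3, the muscle enolase, -0.11 ± 0.05 (-0.03 with the trend removed). Of 10 tested genes for pyruvate entry into mitochondria, 1 was higher (Pdk1, a kinase that inhibits pyruvate dehydrogenase, 0.13 ± 0.05) and 1 lower (Dld, a subunit of that complex, -0.11 ± 0.06). These counts lie below the shares of 14.2% and 13.6% over all tested probes. In the deposited ratios 0 of the 10 were called. On the pentose phosphate, glycerol and serine branches, 2 of 11 were higher and 3 lower, against 14.2% and 13.6% of all tested probes. In the deposited ratios 1 was higher and 3 were lower, against 10.8% and 8.98%. The lower genes were not the same in both: G6pdx did not pass in the deposited ratios (adjusted p = 0.0636), where Taldo1, transaldolase, named after its values were seen, had -0.16 (adjusted p = 0.0389). Psph, the last enzyme of serine synthesis, had 0.22 ± 0.04 and Rpe, a pentose epimerase, 0.11 ± 0.06. Rpe did not pass in the deposited ratios (adjusted p = 0.235) or with the trend removed (adjusted p = 0.128). Tkt, transketolase, had -0.24 ± 0.02, Pgls, which acts after glucose-6-phosphate dehydrogenase, -0.23 ± 0.07, and G6pdx, that dehydrogenase, -0.18 ± 0.03. With the trend removed Pgls had -0.084 and did not pass (adjusted p = 0.124). The other tested Tkt probe and the other tested Pgls probe were called higher. So were the other tested probes of Psph and of Pdk1, whereas the 2 other tested probes of Dld and the 2 of Rpe were not called.

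Among 6 transcription factors known to act on glycolytic genes, 0 were higher and 2 lower, against 14.2% and 13.6% of all tested probes. Hif1a, the regulated subunit of HIF-1, had -0.28, -0.21, -0.25 and -0.29, a mean of -0.26 ± 0.04 (adjusted p = 0.00166). Mlxip, the glucose-responsive factor MondoA, had -0.37, -0.25, -0.18 and -0.23, a mean of -0.25 ± 0.08 (adjusted p = 0.00302). Both were lower on all 4 arrays and in the deposited ratios (-0.25 and -0.23). Of the 5 lists together, with 1 probe a gene, the medians ran from -0.06 to 0.03. The brightest probes of the 9 member genes had a median of 0.38, and all 14 member probes had 0.27. In the deposited ratios these member medians were 0.14 and 0.12. Of the 14 member probes, 8 lay over 16 in mean log2 intensity. The part of brightness in the gap between lists and members was not tested. Among the melanocyte markers, 4 of which lay over 16, 5 of 7 were higher with a median of 0.41, and 1 was higher in the deposited ratios. Of all tested probes 14.2% were higher, and of those over 16 89.6% (10.8% and 29.1% in the deposited ratios).

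The letters ACGTG, the core of the element that HIF-1 recognises and a part of the E-box CACGTG, were searched on both strands (also read as CACGT, which overlaps it in CACGTG) in the 250 bases before each RefSeq gene start of GRCm38.p6. All 10 genes matched an entry, and 5 of the 10 held the letters at 1 or more start sites (Aldoa, Pkm, Ldha, Pgam1 and Pgk1), against 18.5% of 27025 genes. By start site, the letters stood at 2 of 3 for Aldoa, whose 2 windows overlap, and at 1 of 2 for Pkm and for Ldha. Pgam1 and Pgk1 held them at 1 of 1. Of all 32851 start sites 16.6% held them. The promoters with the most matches are shown, with the matches in capitals. That of Ldha, chr7:46845554-46845803 (plus strand), has 5 matches at 3 places, and that of Pgk1, chrX:106186850-106187099 (plus strand), has 2.
Ldha promoter: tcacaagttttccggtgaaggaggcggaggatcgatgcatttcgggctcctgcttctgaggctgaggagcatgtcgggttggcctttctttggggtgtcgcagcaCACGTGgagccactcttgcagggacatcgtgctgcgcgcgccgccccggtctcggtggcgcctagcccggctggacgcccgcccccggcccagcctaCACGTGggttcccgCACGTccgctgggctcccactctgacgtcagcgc
Pgk1 promoter: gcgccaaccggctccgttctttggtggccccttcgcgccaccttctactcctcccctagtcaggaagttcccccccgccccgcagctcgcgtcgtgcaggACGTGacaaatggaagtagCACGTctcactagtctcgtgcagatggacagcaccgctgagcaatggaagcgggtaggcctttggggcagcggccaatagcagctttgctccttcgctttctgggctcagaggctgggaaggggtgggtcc
A match describes the letters in that window and is not a measured binding site. Eno1, Gpi1, Tpi1, Ldhb and Gapdh held no match in theirs.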

How the data were processed

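Transcript levels were measured on 4 Agilent 2-colour arrays, on 1 slide with 1 scan time. The deposited scanner files give spot intensity per channel and processed signals that Feature Extraction 9.5.1.1 had detrended and dye-normalised, per the file headers. A deposited value table repeats their log10 ratios (Cy5 over Cy3, median 0 on each array). Here mean signals were background-corrected (normexp on the median background, offset 50) and loess-normalised within arrays (control spots weighted 0), without outlier spots, and spots of a probe were averaged. The test of log2 ratios against 0 used limma 3.58.1 under R 4.3.3 (lmFit, eBayes, two-sided; Benjamini-Hochberg over 26552 probes, threshold 0.05). The small number of arrays limits precision. The procedure was tested on simulated data. Members and gene lists were chosen with earlier results of these data known. All member probes were named, and per list up to 3 genes in each direction, by absolute log2 ratio among those called. Genes and promoters came from RefSeq (GRCm38.p6), and probe coordinates from the files (mm7, per the file headers). Alternatives covered the signal, offset, centring, filter, saturation, trends, pairing and each replicate left out.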

Additional observations from a re-analysis of the deposited data

How the results depend on the processing

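Among the member probes, 7 higher ones and Eno1 passed in the same direction under every alternative except median centring. Median centring called 0 probes higher and 0 lower, member probes included (at an unadjusted 0.05, 968 and 38 probes of all tested), and moved the median of all probes to 0.15, and log2 ratios turned positive for Pkm A_52_P150212 (0.35), LOC14433 (0.013), Eno3 (0.22), Slc16a1 (0.25), Pfkl (0.16), Dld (0.39), Tkt (0.37), Pgls (0.12), G6pdx (0.33) and Hif1a (0.15). The deposited processed signals called 2872 higher and 2385 lower and turned Tpi1 (-0.11), Pkm A_51_P428913 (-0.071), Ldha A_51_P364146 (-0.065) and MGC68323 (-0.051). With brightness and base trends removed Tpi1 was -0.051. With channels fitted without pairing, which is the fit without the replicate block, 330 probes were higher, 252 lower and 1 member probe lower. Leaving out each replicate gave 2141 to 3514 higher and 2080 to 2736 lower, and 7 to 10 member probes higher and 1 to 2 lower; 7 were higher without replicate 2, and 1 was lower without replicate 1 or 4. Of 36 probes examined under each alternative 33 were called; 4, 8, 7 and 5 of the calls ended without replicates 1, 2, 3 and 4, 23 with the channels unpaired (Hk2, Slc16a3, Slc16a1, Tkt, Hif1a, Mlxip, LOC380687 and LOC672731 among them), 11 in the deposited signals, 7 with the trends removed, 5 with an offset of 10 and 33 with median centring. The cause was not tested. A slide block was not possible with 1 slide. Without a dye swap, dye and antibody cannot be told apart. Dim probes limit the second Gpi1 probe and LOC14433.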
